A study of Mus musculus with 24 samples.

Results

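The normal transcriptome of single cortical collecting ducts, the last tubule segment of the kidney cortex, was described in the 12 wild-type libraries of a series of 24. The 12 were taken by their labels, and each holds the polyA RNA of 1 microdissected tubule. They come from 4 wild-type (WT) male C57BL/6 mice aged 10 weeks, called WT1, WT2, WT3 and WT4, with 3 tubules from each mouse, so that WT1_1 is the first tubule of mouse WT1. All 4 mice share the same genotype, strain, sex and age. Their treatment field reads vehicle while the protocol describes untreated animals. Nothing in the labels gives the day or hour of dissection or the litter, so mouse and any such batch cannot be told apart. The 3 tubules of a mouse share their animal and are not independent mice.

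The cortical collecting duct adjusts the content of water, salt and acid in urine. Its principal cells take up sodium through the epithelial sodium channel, secrete potassium and let water pass through aquaporins when vasopressin acts on its V2 receptor. Its intercalated cells carry acid or bicarbonate with the vacuolar proton pump, or V-ATPase. Type A cells secrete acid with the anion exchanger Slc4a1 at their basal side, and type B cells secrete bicarbonate through pendrin, the product of Slc26a4.

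Levels are given as TPM, a transcript share that is scaled for gene length and for library size. Depth is unknown because TPM keep none. Each library listed between 23580 and 30954 genes above 0, between 13572 and 16091 at 1 TPM or more, and between 108 and 129 at 1000 TPM or more. Between 452 and 554 genes held 50% of a library's TPM, and the 10 highest held 7.57% to 9.37%. Protein-coding genes of the nucleus took 91.5% to 93.8% of TPM. All genes of mitochondrial DNA, with its ribosomal RNAs, took 1.89% to 3.57%. In 4 libraries the summed markers of a neighbouring segment or of blood passed 2000 TPM, namely WT1_1, WT3_1, WT3_2 and WT4_1, and the likeness of tubules, the within-mouse spread and the main tests between mice are also given without them.

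The labelled segment showed its defining markers in every tubule. Aqp2, whose water channel moves to the luminal membrane of principal cells under vasopressin, was the most abundant gene of the table with a mean of 17257 ± 7155 TPM (SD of the 4 mouse means). It was at 11547.1, 12645.4 and 9501 TPM in WT1, at 25749.9, 27066 and 30069.6 TPM in WT2, at 14888, 13983 and 17490.6 TPM in WT3 and at 16325, 11721 and 16097 TPM in WT4. All 3 tubules of WT2 lay above the other 9, and those of WT1 were among the lowest. Fxyd4, which modulates the sodium pump of principal cells, had a mean of 5855 ± 1793 TPM and a range of 3642 to 10863 TPM. Rhcg, an ammonia channel of intercalated and principal cells, was at 2328 to 2918 TPM. Slc26a4, which marks type B cells, was at 820.2 TPM in WT2_3 and between 1256 and 2331 TPM in the other tubules. In bulk tubules, fewer cells of a type and less RNA per cell cannot be told apart.

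The 20 most abundant genes fell into few classes. Beside Aqp2 and Fxyd4 they held the water and glycerol channel Aqp3 (4388 ± 879 TPM), the kidney cadherin Cdh16 (3782 ± 656 TPM) and Pdzk1ip1, a small membrane protein of epithelia (4884 ± 472 TPM). Energy genes were the ATP synthase subunit Atp5b (7362 ± 694 TPM), the respiratory chain subunits Cox8a (3845 ± 73.2 TPM) and Uqcr11 (3228 ± 180 TPM) and the mitochondrial ADP/ATP carrier Slc25a5 (3211 ± 198 TPM). The glycolytic enzymes were Ldhb (5822 ± 534 TPM) and Aldoa (4418 ± 107 TPM). Mitochondrial DNA gave mt-Cytb (8478 ± 1464 TPM), mt-Co1 (5315 ± 683 TPM), mt-Nd1 (5095 ± 810 TPM) and the ribosomal RNA mt-Rnr2 (4861 ± 805 TPM). The cytoskeletal genes Actb (4829 ± 356 TPM) and Tmsb4x (3843 ± 164 TPM) and the membrane protein gene Itm2b (5780 ± 319 TPM) completed the coding genes. Each of these means covers 4 mice. The long noncoding RNA Malat1 was at 8453 ± 1175 TPM, and Gm37376 at 12440 ± 2073 TPM. In the GENCODE vM21 annotation Gm37376 lies inside the Malat1 locus on the opposite strand, so its value is uncertain where reads are not assigned by strand. Of these genes 13 were among the 20 highest of every tubule, and 33 genes were among the 20 highest of any.

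**Figure D1:**
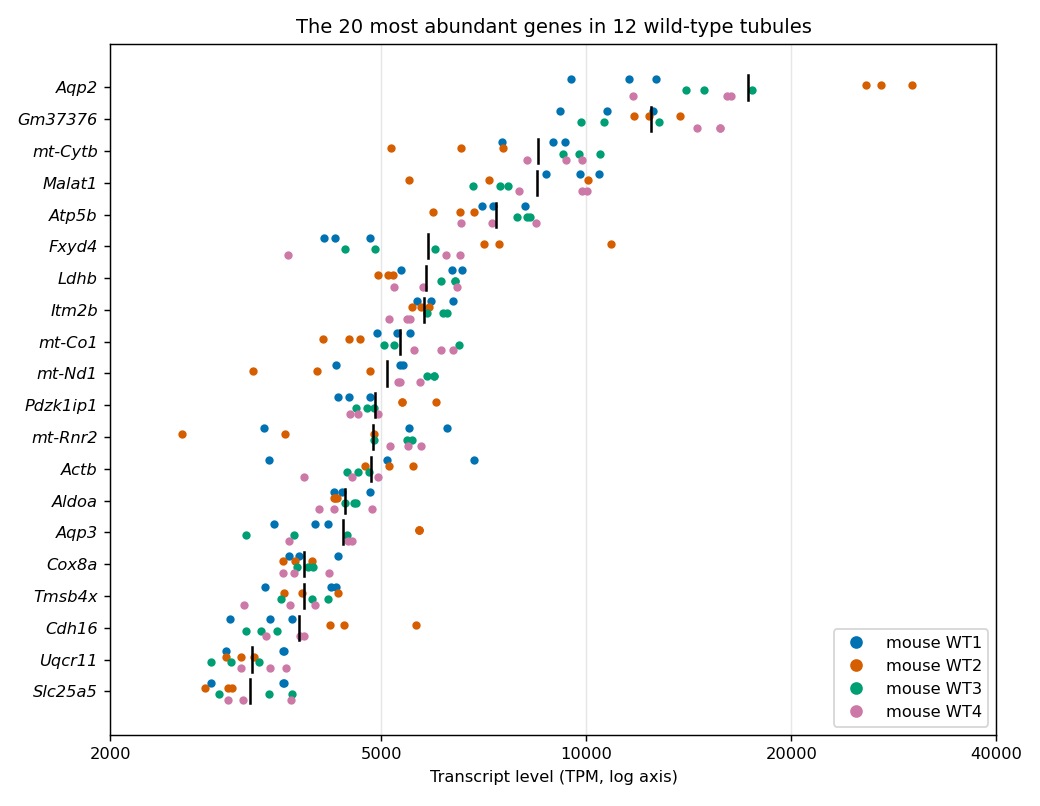
Levels of the 20 most abundant genes in TPM on a log axis, with 1 point for each of 12 wild-type tubules, coloured by mouse, and a bar at the mean. Aqp2 in the tubules of WT2, at 25749.9 to 30069.6 TPM, stands to the right of every other value.

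Sodium transport genes of principal cells were present in all tubules, most of them with little spread. Hsd11b2, the enzyme that shields the mineralocorticoid receptor from glucocorticoids, was at 2915 ± 203 TPM. The sodium channel subunits Scnn1b, Scnn1g and Scnn1a were at 1080 ± 92.4, 778 ± 17.3 and 397 ± 15.6 TPM, and the receptor gene Nr3c2 at 85.5 ± 1.12 TPM (SD, n = 4 mice each). Sgk1, a kinase induced by aldosterone, ran more widely, with 298.6 to 791.2 TPM over tubules. The channel-cleaving protease gene Prss8 was at 182 ± 19.0 TPM, and Nedd4l, the ubiquitin ligase that removes the channel from the membrane, at 322 ± 6.49 TPM. The 12 genes of the sodium channel and mineralocorticoid list summed to 5784 TPM in WT3_2 up to 7230 TPM in WT1_2.

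Of the sodium pump, the beta subunit gene Atp1b1 was at 1180 ± 72.9 TPM. Potassium handling was led by Kcnj1, the secretory channel ROMK, at 988 ± 232 TPM, by the regulatory subunit Kcne1 at 619 ± 154 TPM, and by Kcnq1 at 269 ± 6.50 TPM. The kinase gene Wnk4 was at 59.1 ± 9.94 TPM. Among other aquaporins, Aqp6, of intercalated cells, was at 173.5 ± 73.7 TPM and Aqp4, the basolateral water channel, at 173 ± 156 TPM. Aqp4 ran from 30.5 TPM in WT4_2 to 633.5 TPM in WT2_3. Aqp1, of proximal tubules, averaged 1.92 ± 1.84 TPM, with its highest value of 11.3 TPM in WT3_1.

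Intercalated cell genes were nearly constant as a sum. The 12 markers of the class summed to 9439 ± 373 TPM (SD, n = 4 mice), and ran from 8626 TPM in WT4_1 to 10461 TPM in WT4_2, a fold of 1.21. The 16 principal cell markers summed to 37468 ± 10879 TPM, and ran from 25647 TPM in WT1_3 to 58699 TPM in WT2_3, a fold of 2.29. Aqp2 alone gave 30069.6 TPM of the sum in WT2_3 and 9501 TPM of that in WT1_3, so this fold rests to a large part on 1 gene. Without Aqp2 and Fxyd4 the principal cell list was led by Aqp3 and Hsd11b2, given above. The intercalated sum includes Rhcg, which principal cells also make, and single members such as Atp6v1b1 varied more than the sum. The folds of these sums therefore do not compare cell numbers. The 24 genes of the V-ATPase list that reached 1 TPM included Atp6v1f (2144 ± 71.1 TPM), Atp6v0b (2006 ± 118 TPM) and Atp6v0e (1490 ± 61.0 TPM). The subunit Atp6v1b1, found mainly in intercalated cells, ran from 349.2 TPM in WT4_1 to 1180 TPM in WT3_1. Carbonic anhydrases were high, with Car2 at 2298 ± 72.3, Car15 at 2064 ± 262 and Car12 at 1201 ± 220 TPM. The ammonia transporter Rhbg was at 866 ± 91.5 TPM.

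Both intercalated subtypes varied over tubules, with folds of 2.39 for type A and 2.48 for type B sums. Type B markers summed to 4164 ± 739 TPM, led by Slc26a4 (1715 ± 349 TPM), the protease inhibitor gene Spink8 (1109 ± 201 TPM) and the sodium bicarbonate transporter Slc4a9 (967 ± 149 TPM). The lowest sum was 2252 TPM in WT2_3 and the highest 5576 TPM in WT1_3. Type A markers summed to 1182 ± 288 TPM, led by Slc4a1 (451 ± 163 TPM), the receptor kinase gene Kit (221 ± 14.8 TPM) and Aqp6. The highest type A sum was 1926 TPM in WT2_3, the tubule with the lowest type B sum, and the lowest was 805 TPM in WT3_1. The anion exchanger Slc26a7 ran from 4.16 TPM in WT1_3 to 58.9 TPM in WT2_3.

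Genes of vasopressin, prostaglandin and Wnt signalling covered a wide range of levels. The vasopressin receptor gene Avpr2 was at 1033 ± 315 TPM and Gnas, for the stimulatory G protein, at 922 ± 29.4 TPM. Avpr1a, the V1a receptor gene, was at 196 ± 40.8 TPM. Prkar1a and Prkaca, the regulatory and catalytic subunits of protein kinase A, were at 372 ± 20.0 and 61.2 ± 2.40 TPM. For prostaglandins, the synthases Ptgs1 and Ptges were at 286 ± 50.7 and 260 ± 44.5 TPM. The receptor gene Ptger1 was at 143 ± 108 TPM and Ptger3 at 29.6 ± 9.24 TPM. The inducible Ptgs2 averaged 0.0208 TPM. In the Wnt pathway, Ctnnb1, for beta-catenin, was at 387 ± 11.9 TPM and ran from 335.2 to 421.6 TPM. The receptor genes Fzd4 and Fzd1 were at 89.0 ± 5.57 and 45.2 ± 11.1 TPM, and the feedback target Axin2 averaged 0.398 TPM.

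Transcription factors of the duct were led by Foxi1, which intercalated cells need, at 709 ± 150 TPM. Tfcp2l1, which acts in both main cell types, was at 481 ± 28.9 TPM, Hoxd8 at 265 ± 24.3 TPM, Pax8 at 248 ± 31.0 TPM and Gata2 at 234.5 ± 51.1 TPM. Of junction genes, Cldn8, the claudin that forms a chloride path in this segment, was at 831 ± 190 TPM, Cldn7 at 454 ± 46.0 TPM and Epcam at 653 ± 35.4 TPM.

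Energy metabolism held a large share of the transcriptome. The 88 nuclear genes of the respiratory chain and ATP synthase took 9.39% of TPM, the 18 glycolysis genes 1.91%, the V-ATPase 1.41% and the citric acid cycle 0.962%. Ribosomal protein genes, 88 in number, took 1.54% in these libraries. Mdh1 and Mdh2, the cytosolic and mitochondrial malate dehydrogenases, were at 1630 ± 156 and 1096 ± 82.0 TPM, and Gapdh at 1557 ± 41.7 TPM. The 13 mitochondrially encoded genes took 2.46%, all of it from 7 of them. The 6 genes mt-Atp6, mt-Atp8, mt-Co2, mt-Co3, mt-Nd3 and mt-Nd4l were listed at 0 in all 12 libraries. The share is therefore uncertain and may be too low, and the reason for these zeros was not tested. The sum of the list was lowest in WT2_3, at 16029 TPM, and highest in WT4_2, at 28977 TPM. Proliferation genes were low, with Pcna at 36.5 ± 1.28 TPM and Mki67 averaging 0.556 TPM. The injury marker Havcr1 averaged 0.101 TPM, while Lcn2, which intercalated cells can secrete, ran from 26.2 TPM in WT4_2 to 384.6 TPM in WT2_3.

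The genes that varied most between tubules of 1 mouse were markers of other cells and short RNAs. Spread was measured as the standard deviation (SD) of log2(TPM + 1) pooled within mice, whose median over the 14805 genes that averaged 1 TPM or more was 0.198. It was 0.341 for genes between 1 and 10 TPM, 0.156 up to 100 TPM, 0.110 up to 1000 TPM and 0.124 above. Of the 15 genes with the largest spread at a mean of 10 TPM or more, 4 encode proteins, the globins Hbb-bs and Hba-a1 and the thick ascending limb genes Egf and Slc12a1. The other 11 include the small nucleolar RNA gene Snord118, with 0 in WT1_1 and 165.6 TPM in WT3_3, and the spliceosomal U4, with 0 in WT1_1 and 208.1 TPM in WT3_3. Short RNAs are poorly caught by polyA libraries, and members of such families are near copies, so their values are uncertain. Without the 4 libraries, 10 of the 15 were still among the 15 with the largest spread, and the median over all genes was 0.181. The SD within mice of Egf was then 0.167, against 3.75 with them, and that of Hbb-bs 3.76, against 4.21. The 4 libraries were chosen by marker sums and include the tubules where Egf was high. The fall for Egf thus follows from that choice.

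Blood genes stood out in 1 tubule. Hbb-bs, adult beta globin, was at 15856 TPM in WT3_2 and had its lowest value of 0.66 TPM in WT2_2. All 5 erythrocyte genes were present, and their sum was 24918 TPM in WT3_2, against 1.48 to 395.3 TPM in the other 11 tubules. The globin genes of a family are near copies, so their single values are uncertain. Alas2, the erythroid enzyme of haem synthesis, was at 117.5 TPM in WT3_2 and at 0 in WT1_3.

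Thick ascending limb genes were high in 3 tubules of 3 mice. Umod, for uromodulin, was at 2545 TPM in WT1_1, 1389 TPM in WT4_1 and 708.4 TPM in WT3_2, and between 6.45 and 53.3 TPM in the other 9. Slc12a1, the sodium potassium chloride cotransporter of that segment, was at 469.7 TPM in WT1_1 and 0.06 TPM in WT2_1. Egf, also made there, was at 1657 TPM in WT1_1 and 0.57 TPM in WT1_2, a tubule of the same mouse. Summed over 8 genes this list gave 5325 TPM in WT1_1, 2558 TPM in WT4_1 and 1743 TPM in WT3_2, against 184 to 990.3 TPM elsewhere. The sum of 990.3 TPM was that of WT1_2, where Umod was at 25.1, Egf at 0.57 and Slc12a1 at 0.13 TPM. Most of it thus came from other members of the list, so the sums understate the contrast seen in these 3 genes.

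Proximal tubule genes were high as a sum in WT3_1 and WT3_2, but single genes differed between these tubules. Kap, the androgen-regulated kidney protein, was at 3840 TPM in WT3_1 and 12.2 TPM in WT2_2. In WT3_2 it was at 119.2 TPM, below its 774.5 TPM in WT4_1. Slc5a2 went the other way, with 8.4 TPM in WT3_1 and 169.7 TPM in WT3_2. Slc34a1, the phosphate cotransporter, was at 600.7 TPM in WT3_1, 571.5 TPM in WT3_2 and 0.43 TPM in WT2_2. Gpx3, the secreted glutathione peroxidase, was at 4613 TPM in WT3_2 and 1593 TPM in WT3_1, and at 59.0 to 411.8 TPM in the other 10. The 16 genes summed to 9114 and 6828 TPM in WT3_1 and WT3_2, against 510.1 TPM in the third tubule of that mouse and 98.6 to 1853 TPM in the other mice.

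Connecting tubule genes, of the segment just upstream, formed a gradation. S100g, the small calcium-binding protein calbindin-D9k, was at 3727 TPM in WT1_2, and at 213.9 to 293.2 TPM in the tubules of WT2. Klk1, tissue kallikrein, was at 2114 TPM in WT4_1, 1166 TPM in WT1_1 and 33.2 to 257.5 TPM in the rest. The 7 genes summed to 388, 476 and 595 TPM in WT2, below the lowest value of any other tubule, 867 TPM in WT3_3. Immune genes varied also: the sum over 13 macrophage and class II genes was 1704 TPM in WT1_1 and 84.8 TPM in WT2_3. Cd74, the class II invariant chain, was at 674.4 TPM in WT1_1 and 31.9 TPM in WT3_3. Endothelial genes summed to 94 to 444 TPM, led by Plvap at 113 ± 46.1 TPM. The distal convoluted tubule gene Slc12a3 averaged 1.24 TPM, with 9.84 TPM in WT4_1, and the podocyte gene Nphs1 averaged 0.107 TPM.

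**Figure D2:**
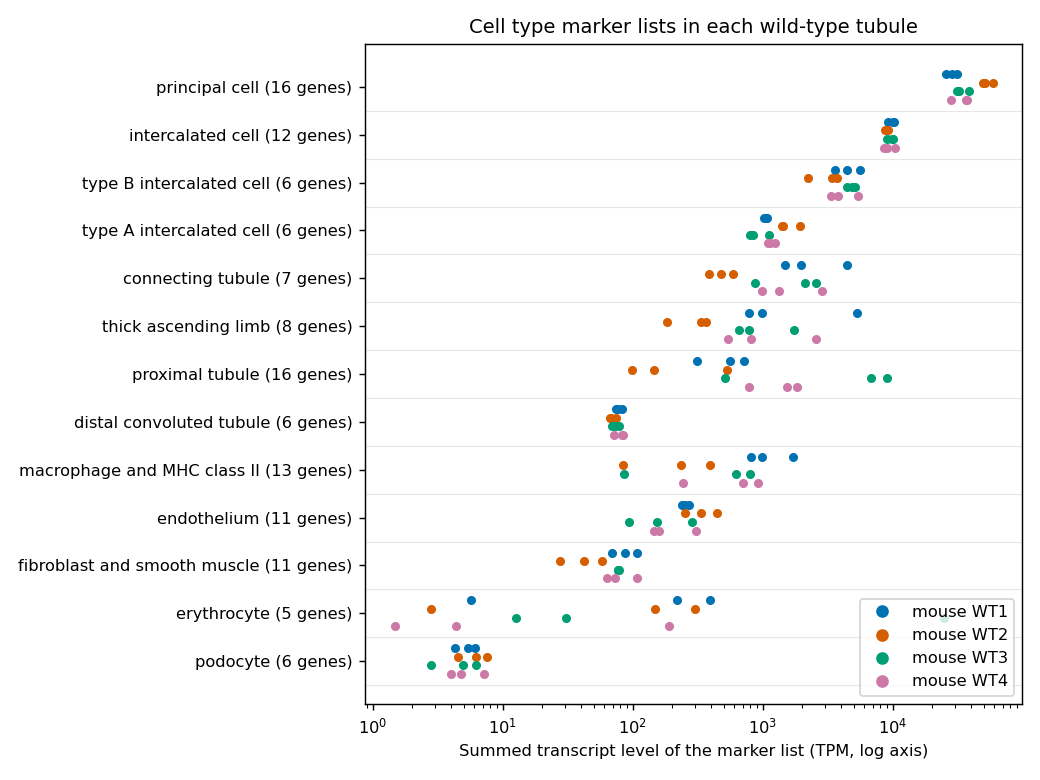
Summed TPM of 13 cell type marker lists in each of 12 wild-type tubules, on a log axis and coloured by mouse. The principal cell list lies farthest right, at 25647 to 58699 TPM, and the intercalated cell list at 8626 to 10461 TPM. The erythrocyte list spans 1.48 to 24918 TPM and the proximal tubule list 98.6 to 9114 TPM.

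Among protein-coding genes alone, a list added after the values were seen, the 100 most variable of 8564 had spreads between 0.791 and 4.21. Of these, 39 had their highest level in WT3_1, 28 in WT1_1, 16 in WT3_2, 6 in WT2_3 and 5 in WT4_1. The marker lists held 10 proximal tubule, 8 macrophage and class II, 5 erythrocyte and 4 thick ascending limb genes among them, and 65 were in no list. Immediate early genes gave 4 more. Fos, which is induced within minutes by many stimuli, ran from 406.4 TPM in WT3_2 to 3616 TPM in WT1_1.

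The 10 steadiest genes of at least 100 TPM were Cct5, Cct6a, Vps29, Sar1a, Ndufa11, Sdhaf4, Scamp3, Gstt3, Puf60 and Tcf25. Cct5 and Cct6a, subunits of the cytosolic chaperonin, were at 199.9 ± 1.59 and 130.3 ± 2.17 TPM (SD, n = 4 mice each) and ran from 193.7 to 211.3 TPM and from 126 to 138.7 TPM over the 12 tubules. Vps29, a retromer subunit, was at 200.4 ± 3.04 TPM, Sar1a, of the vesicle coat, at 148.6 ± 4.32 TPM and Ndufa11, of complex I, at 1298 ± 25.8 TPM. Actb, often taken as a reference gene, had a within-mouse SD of 0.27, and Gapdh one of 0.05.

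**Figure D3:**
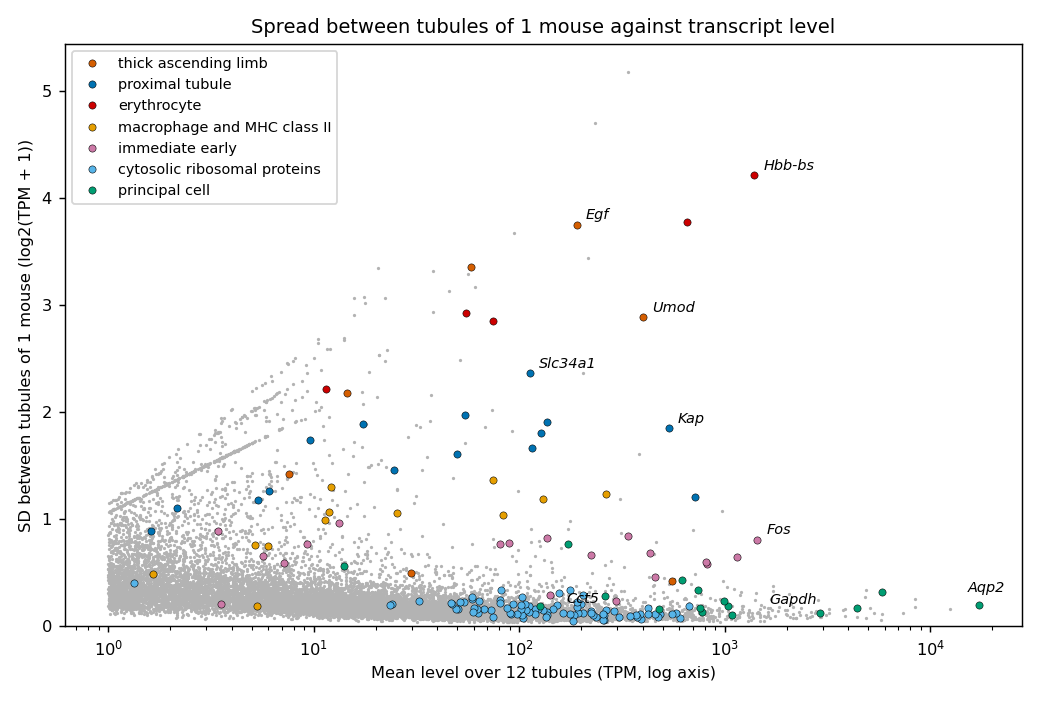
SD of log2(TPM + 1) between tubules of 1 mouse against mean TPM (log axis), with 1 point for each of 14805 genes and 7 gene lists in colour. Blood, thick ascending limb and proximal tubule genes lie above the body of genes, whose median is 0.198.

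Tubules of the same mouse were more alike than tubules of different mice, by a small margin. The mean Pearson correlation of log2(TPM + 1) across genes was 0.959 for pairs within mice and 0.953 for pairs between mice, a difference of 0.00645 (one-sided exact permutation test over all partitions of the tubules into 4 sets of 3, p = 0.000714, where the smallest possible is 6.5e-05). Each of 11 tubules correlated more, on average, with its own mouse than with the others. The exception was WT3_3, at 0.949 with WT3_1 and WT3_2 and 0.960 with tubules of other mice. Without the 4 libraries, left out after seeing the data, the difference was 0.00541 and the exact p 0.05, so that the test then missed the threshold (smallest possible 0.0012). The lowest within-mouse mean was 0.951, in WT3, and the highest 0.964, in WT1.

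**Figure D4:**
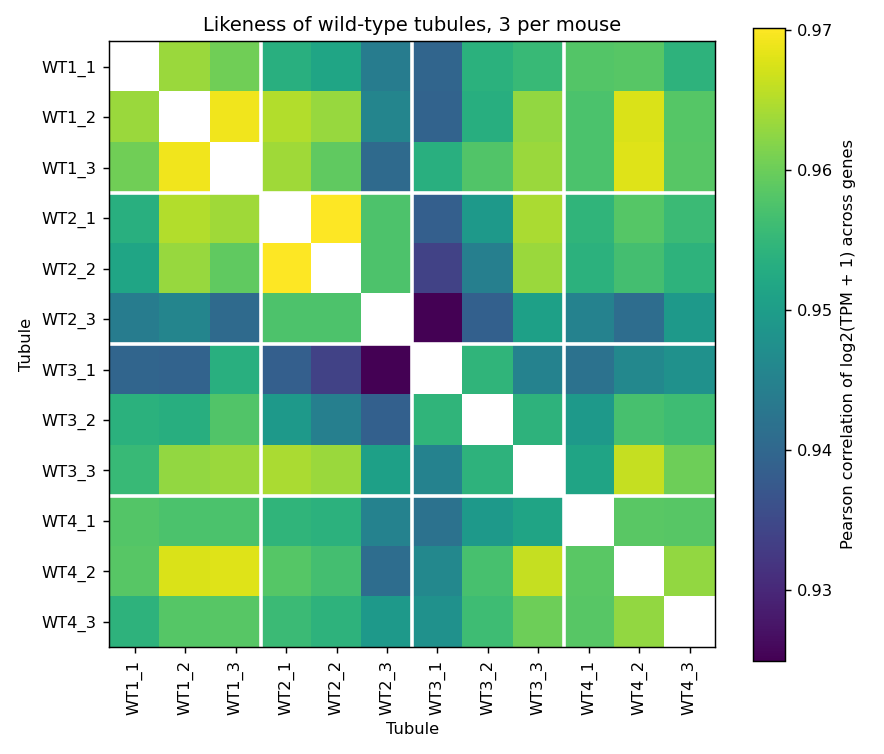
Pearson correlation of log2(TPM + 1) across genes for each pair of wild-type tubules, with white lines between mice. The brightest pair is WT2_1 and WT2_2, at 0.970, while WT3_1 and WT2_3 are the darkest rows. Pairs of different mice, such as WT1_3 and WT4_2 at 0.968, can be brighter than pairs within mice.

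Differences between mice were tested for each gene against the spread between tubules of 1 mouse, with limma's moderated F test over the 4 mice and Benjamini-Hochberg adjustment at 0.05. Of 14805 genes, 235 passed, or 1.59%, and 3240, or 21.9%, had an unadjusted p under 0.05. This count depended on single tubules. It was 169 without WT1_1, 76 without WT1_2, 107 without WT2_1, 51 without WT2_2 and 84 without WT2_3. It was 81 without WT3_1, 89 without WT3_2, 133 without WT4_1 and 95 without WT4_3. The count did not fall without WT1_3, at 236, WT3_3, at 342, or WT4_2, at 243. Without the 4 libraries that stand apart, a choice made after seeing the data, it was 32, of which 10 were among the 235. The median between-mouse share of the variance of a gene was 0.189, and 2976 genes, 20.1%, had a share above 0.5. The share was higher at higher levels, with a median of 0.128 for genes between 1 and 10 TPM and 0.305 above 1000 TPM. The percentage of genes that passed also changed with level. It was 0.553% between 1 and 10 TPM, 1.91% up to 100 TPM, 3.74% up to 1000 TPM and 3.28% above. The gene lists set beside the 1.59% below were chosen with earlier results of these data known. Their percentages are descriptions and not independent tests.

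Among the genes that passed, WT2 was the highest mouse in 36.2% and WT3 the lowest in 35.7%, where they were so in 34.6% and 32.0% of all genes tested. WT4 was highest in 33.2% and lowest in 8.09% of them, where it was so in 25.1% and 18.1% of all genes tested. WT3 was highest in 9.36%, against 18.4% of all tested. WT1 and WT4 were the 2 highest mice in 103 of them, 43.8%, where they were so in 21.7% of all genes tested. WT2 and WT4 were the 2 highest in 20.9%, against 22.9% of all tested.

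Aqp2 differed between mice. The mean was 2.46-fold higher in WT2, at 27628 TPM, than in WT1, at 11231 TPM, a range of mouse means of 1.31 on the log2 scale (limma adjusted p = 0.00931). An exact permutation test of the F ratio gave p = 0.00201, and 0.00804 adjusted over the 4 marker genes given with the segment. For Fxyd4 the adjusted exact p was 0.0530, for Rhcg 0.0755 and for Slc26a4 0.141. The limma adjusted p of Aqp2 was 0.378 without mouse WT2 and 0.145 without the 4 libraries. After quantile normalization it was 0.799. That setting gives genes of equal rank the same value in every library. Aqp2 was the highest gene of most tubules, so quantile normalization could hardly show a difference in it. The limma adjusted p of Aqp2 ran from 0.004345 to this 0.799 over all 27 alternatives and passed in 23.

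Avpr2 followed the same order of mice as Aqp2 at its ends. It was at 755.8, 788.1 and 620.3 TPM in WT1, at 1288, 1369 and 1733 TPM in WT2, at 1031, 936 and 1137 TPM in WT3 and at 1024, 778.5 and 931.2 TPM in WT4. The WT2 tubules lay above the other 9 (limma adjusted p = 0.0212, passed in 19 of 27 alternatives). The principal cell list had 2 of 16 members past the threshold, Aqp2 and Avpr2, or 12.5%, where 1.59% of all genes did. The number was 1 without WT2_2 or WT2_3 in turn, 4 without WT4_2, and 0 without mouse WT2, without the 4 libraries or by an ordinary F test. By limma, 13 of the 16 had an unadjusted p under 0.05, where 21.9% of all genes did. Of the intercalated cell list, Foxi1 was the 1 of 12 that passed (adjusted p = 0.0446, passed in 7 of 27 alternatives), with 894.8 TPM in WT4 and 579 TPM in WT2. Slc4a1 was at 679.3 TPM in WT2 and 317 TPM in WT3 (adjusted p = 0.0338, passed in 11 of 27). Cldn8 was at 1095 TPM in WT2 and 670.4 TPM in WT4 (adjusted p = 0.0490, passed in 6 of 27). Leaving out the 4 libraries gave an adjusted p of 0.268 for Foxi1, 0.233 for Slc4a1 and 0.202 for Cldn8. Beside these genes, WT2 had the lowest connecting tubule sums. It also had the lowest mouse mean of the mitochondrially encoded sum, at 19209 TPM against 24649 to 27644 TPM in the others. That sum rests on the 7 genes not listed at 0. The part of these sums in the result was not tested.

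Fxyd2 and Spp1 were lowest in WT2. Fxyd2, the gamma subunit of the sodium pump, was at 377.5, 459.1 and 189.5 TPM in WT2 and between 906.8 and 1524 TPM in the other 9 tubules, with no overlap (limma adjusted p = 0.0171, passed in 23 of 27 alternatives). Spp1, for osteopontin, was at 237.2, 251.6 and 336.2 TPM in WT2 and between 384.1 and 1120 TPM in the others (adjusted p = 0.0236, passed in 18 of 27). The adjusted p was 0.202 for Fxyd2 and 0.204 for Spp1 without the 4 libraries. The connecting tubule sum was also lowest in these 3 tubules, and its part in the result was not tested. Genes with a large range also included some that were highest in WT2. Anxa9, an annexin gene, was 5.22-fold higher in WT2, at 115 TPM, than in WT1, at 22.0 TPM (adjusted p = 0.0311, passed in 13 of 27 alternatives). Ranbp3l, which encodes a Ran-binding nuclear export factor, was at 42.7 TPM in WT2 and 5.01 TPM in WT1 (adjusted p = 0.0311, passed in 16 of 27).

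**Figure D5:**
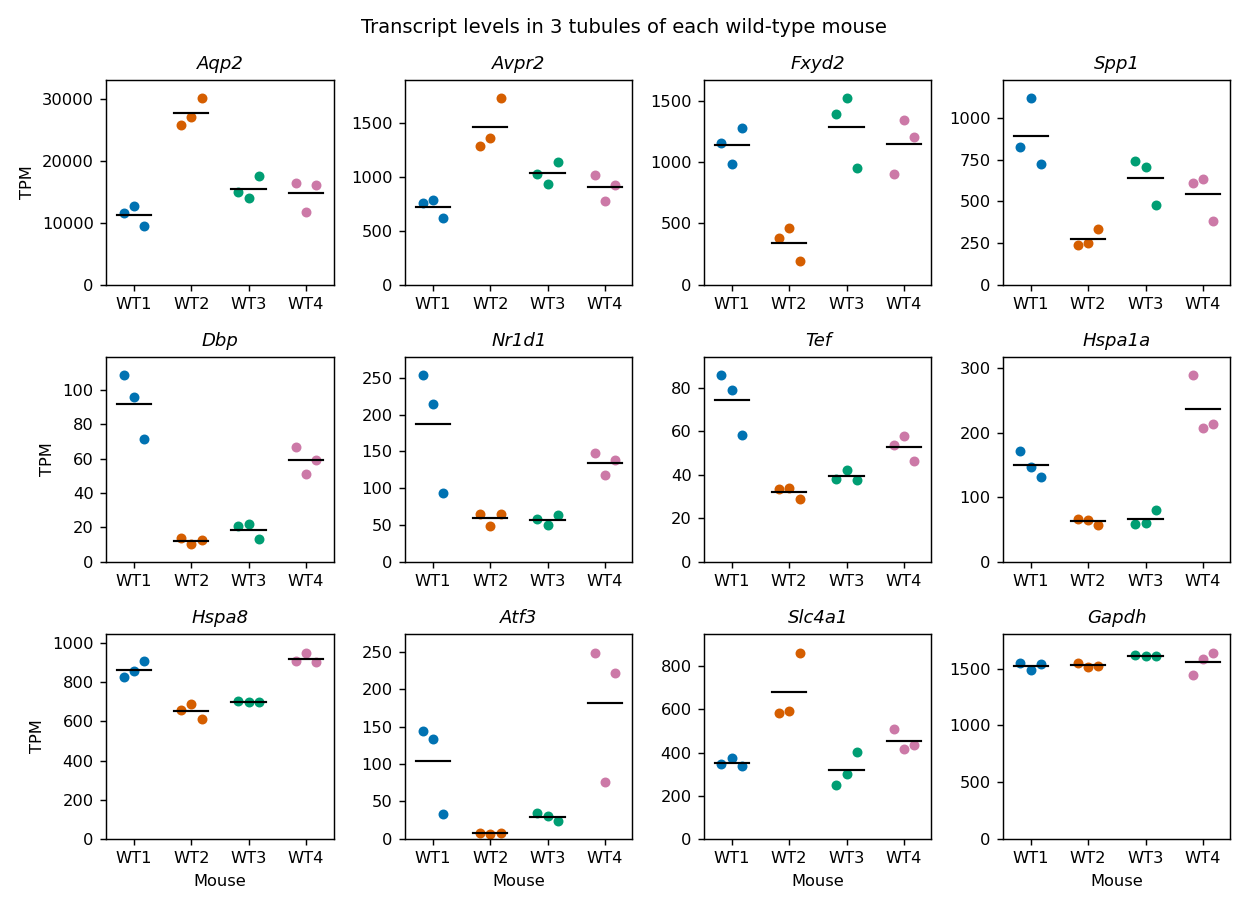
TPM of 12 genes in the 3 tubules of each wild-type mouse (points), with a bar at the mouse mean and each axis starting at 0. Aqp2 and Avpr2 are highest in WT2, Fxyd2 and Spp1 lowest there, and Dbp, Nr1d1, Tef, Hspa1a and Hspa8 are higher in WT1 and WT4 than in WT2 and WT3.

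Several circadian clock genes differed between mice. Of 17 tested, 6 passed, or 35.3%, where 1.59% of all genes did. Dbp, a clock output factor that binds D-box elements, was at 108.3, 95.6 and 71.6 TPM in WT1, at 13.7, 10.4 and 12.6 TPM in WT2, at 20.8, 21.7 and 13.2 TPM in WT3 and at 66.7, 51.0 and 59.3 TPM in WT4. The tubules of WT1 and WT4 did not overlap those of WT2 and WT3. Dbp was 7.51-fold higher in WT1 than in WT2 (limma adjusted p = 0.000272) and passed in all 27 alternatives.

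The other clock genes past the threshold did not all share 1 order of mice. The nuclear receptor genes Nr1d1 and Nr1d2, repressors of the clock, were at 186.9 and 43.3 TPM in WT1, 59.4 and 18.8 TPM in WT2, 57.4 and 21.9 TPM in WT3 and 134.6 and 35.3 TPM in WT4 (adjusted p = 0.0330 and 0.0117, passed in 12 and 24 of 27 alternatives). Tef, of the same factor family as Dbp, was at 74.3 TPM in WT1 and 32.2 TPM in WT2 (adjusted p = 0.00931), and Per1, of the repressor arm, at 14.0 TPM in WT1 and 3.43 TPM in WT3 (adjusted p = 0.0311). Arntl, the activator that pairs with Clock, had the reverse order: its 6 values were 29.0 to 39.3 TPM in WT2 and WT3 and 20.5 to 24.6 TPM in WT1 and WT4 (adjusted p = 0.0250). Clock itself ran from 15.4 to 22.1 TPM and did not pass (adjusted p = 0.554). Nr1d2, Per1, Arntl and Clock were named after their values were seen. The summed clock list was 474 to 1017 TPM in WT1, 345 to 386 TPM in WT2, 317 to 365 TPM in WT3 and 507 to 635 TPM in WT4. At an unadjusted p under 0.05 there were 13 of the 17, where 21.9% of all genes were below it. Those past the threshold numbered 3 without WT1_2, WT2_1, WT2_2, WT2_3 or WT3_1 in turn, and 1, Dbp, without the 4 libraries.

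Heat shock genes also split the mice. Of 15 tested, 6 passed, or 40.0%, where 1.59% of all genes did. Hspa1a, an inducible Hsp70 chaperone, was at 171.9, 146.3 and 131.3 TPM in WT1, at 66.8, 65.2 and 57.1 TPM in WT2, at 58.0, 60.1 and 80.0 TPM in WT3 and at 288.7, 207.8 and 214.1 TPM in WT4. It was 3.76-fold higher in WT4 than in WT2 (limma adjusted p = 0.000633). Hspa1b, its near-identical neighbour, was 3.15-fold higher in WT4, at 270 TPM, than in WT3, at 85.8 TPM (adjusted p = 0.000642). Reads can be split between these copies, so each value is uncertain, and both passed in all 27 alternatives. Hspa8, the constitutive Hsp70, was at 865.1 TPM in WT1, 652.5 TPM in WT2, 701.1 TPM in WT3 and 921.2 TPM in WT4 (adjusted p = 0.00682). The cochaperone genes Dnajb1 and Dnaja1 and the nucleotide exchange factor gene Hsph1 were the other members (adjusted p = 0.00931, 0.0191 and 0.0311). Dnajb1 was at 45.6 to 46.9 TPM in WT2 and 88.8 to 148.9 TPM in WT4. The mitochondrial chaperonin genes Hspd1 and Hspe1 did not pass, with 73.8 to 115.5 and 89.2 to 153.4 TPM. At an unadjusted p under 0.05 there were 13 of the 15, where 21.9% of all genes were below it. The number past the threshold was 3 without mouse WT2 and 3 by an ordinary F test. Without the 4 libraries 2 passed, Hspa1a and Hspa1b.

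The promoters of both groups were searched for the motif that each class is known for, in the 250 bases before the start sites of RefSeq (GRCm38.p6). The E-box CACGTG, bound by the Clock and Arntl pair, was in 5 of the 16 clock genes matched by symbol, of 19 listed, where 6.86% of all 27025 gene symbols had a window with it. By window, 6 of 21 held it, against 6.02% of 32851. The 19 listed count Arntl also under its other name, Bmal1. The 5 genes with an E-box were Per1, Cry1, Tef, Ciart and Bhlhe41. Of these, Per1 and Tef passed for a difference between mice, and Cry1, Ciart and Bhlhe41 did not. Arntl, Nr1d1, Nr1d2 and Dbp passed with no E-box. Paired heat shock units, written GAANNTTC or TTCNNGAA, were in 7 of the 10 heat shock genes matched, of 15 listed, against 14.5% of all symbols. By window, 8 of 15 held one, against 12.8% of all. Hspd1 and Hspe1 share an overlapping window, so they are not separate matches. The windows of Hspa1a and Hspa1b are near copies, and the 2 windows of Hsph1 overlap, so these are not separate matches either. Of the 7, Hspb1, Hspd1 and Hspe1 did not pass for a difference between mice, while Dnajb1 passed with no match and Hspa8 had no window in the table. Each of these motifs reads the same on both strands. A match is a description of letters and not a site shown to be bound. The 5 windows below belong to genes that differed between mice and hold a match, which is in capitals. They run 5′ to 3′ and end at the base before the start. Per1 lies on the plus strand at chr11:69098699-69098948, with the first base of its E-box 166 bases before the start. The first of 2 listed Tef starts lies on the plus strand, shown at chr15:81802523-81802672, with its E-box 127 bases before. Hspa1b lies on the minus strand, shown at chr17:34959239-34959388, with its unit 104 bases before. Hsph1 lies on the minus strand, shown at chr5:149636337-149636486, with its unit 33 bases before, and Dnaja1 on the plus strand, shown at chr4:40722318-40722467, with its unit 124 bases before.
Per1: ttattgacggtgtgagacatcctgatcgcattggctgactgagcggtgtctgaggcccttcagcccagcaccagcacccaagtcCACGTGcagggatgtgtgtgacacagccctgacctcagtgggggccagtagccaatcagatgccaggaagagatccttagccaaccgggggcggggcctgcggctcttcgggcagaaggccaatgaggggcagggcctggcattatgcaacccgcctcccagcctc
Tef: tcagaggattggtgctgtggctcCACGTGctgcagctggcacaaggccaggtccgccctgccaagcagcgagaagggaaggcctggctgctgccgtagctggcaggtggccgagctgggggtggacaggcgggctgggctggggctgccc
Hspa1b: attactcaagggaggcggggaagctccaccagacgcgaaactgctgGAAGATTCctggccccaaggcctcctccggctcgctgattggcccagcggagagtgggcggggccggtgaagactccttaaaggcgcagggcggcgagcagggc
Hsph1: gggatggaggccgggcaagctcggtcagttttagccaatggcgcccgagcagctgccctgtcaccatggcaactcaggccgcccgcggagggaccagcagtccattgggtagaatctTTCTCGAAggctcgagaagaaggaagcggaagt
Dnaja1: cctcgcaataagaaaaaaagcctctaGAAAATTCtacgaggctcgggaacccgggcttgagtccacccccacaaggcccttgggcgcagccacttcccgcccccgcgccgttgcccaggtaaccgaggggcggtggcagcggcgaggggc

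Dbp, the clock gene with the largest range, had no E-box in its window. That says only that these letters are not in those 250 bases.

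Immediate early genes had a wide spread within and between mice. Of 19 tested immediate early genes 4 passed, or 21.1%, where 1.59% of all genes did. Atf3, a stress-induced factor, was at 144.6, 133.2 and 32.9 TPM in WT1, at 7.60, 6.95 and 8.21 TPM in WT2, at 34.8, 30.4 and 23.3 TPM in WT3 and at 249.1, 75.8 and 221.2 TPM in WT4. It was 24.0-fold higher in WT4 than in WT2 (limma adjusted p = 0.0117, passed in 23 of 27 alternatives). Jun, at 671.5 TPM in WT1, 659.4 TPM in WT4 and 246.1 TPM in WT3, Jund and Klf6 were the others (adjusted p = 0.0463, 0.0370 and 0.0450), and Jund and Klf6 were named after their values were seen. Fos did not pass (adjusted p = 0.255), with 3616, 2400 and 640.7 TPM in the tubules of WT1. Without WT1_3, 12 of the 19 passed. The number was 2 without WT2_1, WT2_3 or WT4_2 in turn, 1 without WT1_1, WT1_2, WT3_1, WT3_2, WT4_1 or WT4_3, and 0 without WT2_2. Without the 4 libraries the list had no member past the threshold by limma. An ordinary F test also called 0.

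Other named genes had a small p or a large range of mouse means. Tnfrsf12a, the receptor for the cytokine TWEAK, was at 173.3 TPM in WT4 and 42.6 TPM in WT2 (limma adjusted p = 0.00268). Hbegf, a growth factor of the EGF family, was at 113 TPM in WT4 and 26.9 TPM in WT3 (adjusted p = 0.00449). Gdf15, a stress-induced cytokine, was at 604.9 TPM in WT1 and 92.7 TPM in WT3 (adjusted p = 0.0308, passed in 13 of 27 alternatives), and Irs2, an insulin receptor substrate, at 67.5 TPM in WT1 and 15.4 TPM in WT3 (adjusted p = 0.0117). Ajuba, of cell junctions, was at 171.4 TPM in WT4 and 80.3 TPM in WT3 (adjusted p = 0.000992). Mcl1, which protects from apoptosis, was at 127.3 TPM in WT1 and 78.3 TPM in WT3 (adjusted p = 0.00277). Usp2, a ubiquitin protease, was at 119.1 TPM in WT1 and 33.4 TPM in WT2 (adjusted p = 0.00268). The smallest p of all was that of Tmem254a (adjusted p = 4.43e-05), at 680 and 664 TPM in WT2 and WT4 and 326 and 278 TPM in WT3 and WT1. It has near-identical copies in the genome, so its value is uncertain. Cdk5rap1, Smim1, Banp, Plekhg3, Wee1 and Gm15446 were the others of the 15 smallest p, with adjusted p from 0.00268 to 0.00333.

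Genes of the unfolded protein response passed in 6 of 17, or 35.3%, where 1.59% of all genes did, but not in 1 order. Atf4, its translation-controlled factor, Herpud1 and Dnajb9, of protein degradation and folding, were lowest in WT2, at 80.5, 66.0 and 11.8 TPM, and highest in WT1 or WT4 (limma adjusted p = 0.0491, 0.0311 and 0.0458). The folding genes Pdia6, Sdf2l1 and Hyou1 were highest in WT2, at 322.7, 105 and 27.2 TPM (adjusted p = 0.0319, 0.0189 and 0.0448). These 6 were named after their values were seen. The number past the threshold was 7 without WT1_3, 5 without WT1_1 or WT3_3, 3 without WT4_2 and 2 without WT4_3. It was 1 without WT1_2, WT2_1, WT3_1, WT3_2 or WT4_1 in turn, and 0 without WT2_2 or WT2_3. Without the 4 libraries the list had no member past the threshold by limma, and an ordinary F test called 0.

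Of the 8 housekeeping lists, 6 had no gene past the threshold, and the 3 largest of these come first. At a share of 1.59%, few calls would be due in lists of these sizes. Of 83 ribosomal protein, 81 nuclear respiratory chain and 37 proteasome genes tested, 0 passed, against 1.59% of all genes. At an unadjusted p under 0.05 there were 4, 16 and 3, where 21.9% of all genes were below it, and an ordinary F test with no moderation also called 0 in each list. Their median between-mouse shares were -0.110, 0.164 and 0.0636, beside 0.189 over all genes. The smaller lists with 0 past the threshold were not alike. The mitochondrially encoded list had a median share of 0.636, with 7 of 7 genes at an unadjusted limma p under 0.05. The citric acid cycle list had a median share of 0.451, with 8 of 17, and the cholesterol synthesis list 0.122, with 2 of 21. In the sodium channel and mineralocorticoid list 2 of 12 passed, Tsc22d3 and Zbtb16, both targets of steroid receptors. Of 25 Wnt pathway genes 2 passed, the ligand gene Wnt4 and Fzd1 (limma adjusted p = 0.0491 and 0.0294), while Ctnnb1 did not (adjusted p = 0.730).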

How the data were processed

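Per the labels' protocols, RNA of microdissected tubules was isolated with Zymo reagents and copied to cDNA by the SMART-Seq V4 low-input chemistry before Illumina sequencing. The authors deposited 1 table of TPM for 55416 genes. STAR, RSEM 1.3.3 and the build GRCm39 are named in the submitters' processing notes. For annotation release, filters and strand, the sources used here say nothing. TPM sum to the same total in each library, so depth is unknown and no interval that needs it is given. Of the rows, 1705 share a symbol with another, and list sums take the one with the highest mean.

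Biotypes came from GENCODE vM21 by gene ID, which matched 52083 IDs. The test used log2(TPM + 1) of the 14805 genes that averaged 1 TPM or more, in limma 3.58.1 (R 4.3.3), with a moderated F test, a trend, no covariate and Benjamini-Hochberg adjustment at 0.05. The 4 mice were the groups and 3 tubules of each the replicates, so p-values measure spread between tubules and speak of these mice only. The between-mouse share is (MSB - MSW)/(MSB + 2 MSW), with MSB and MSW the mean squares between and within mice, and can be below 0. Levels are means ± SD of 4 mouse means, and folds between mice are ratios of mean TPM. Differences on the log2(TPM + 1) scale understate changes of low genes. Exact permutation tests ran over every way to part the 12 tubules into 4 sets of 3. The members and 43 gene lists were chosen with earlier results of these data known. Named genes were the 4 markers, the 20 most abundant, the 15 with the largest spread within mice, the 15 with the smallest p, the 10 with the largest range among genes past the threshold (these 3 at 10 TPM or more), the 10 steadiest at 100 TPM or more, and in each list the 3 most abundant (up to 8 in transport, signalling and regulator lists) and the most variable. Other genes are named as list members past or near the threshold, or as low or contrasting members, and were chosen after their values were seen. Alternatives changed the pseudocount, the filter, the scaling and the moderation, took the tubule number as a block, and left out tubules or mice.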

Additional observations from a re-analysis of the deposited data

Results flagged for a closer look

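Among 65 quantities compared over the 4 mice, namely the levels of the most abundant genes and markers and the sums of the gene lists, 3 had 1 mouse far from the other 3 by Dixon's criterion, which chance alone gives in about 1 in 20. The summed erythrocyte genes averaged 8320.4 TPM in WT3, against 65.6 to 206.7 TPM in the other mice, and the value came from tubule WT3_2, at 24918 TPM. The summed glycolysis genes averaged 19696 TPM in WT3, against 18868 to 18953 TPM in the others. Slc25a5, the mitochondrial ADP/ATP carrier, averaged 2917.5 TPM in WT2, against 3267 to 3332 TPM in the others.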

How the results depend on the processing

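Depth is unknown, so no detection limit can be given, and with 3 tubules per mouse the count of genes that differ between mice is the least stable result. From 235 genes it became 96 with no filter on low values, 406 with a filter at 10 TPM, 50 with no trend, 27 by an ordinary F test, 138 without mouse WT1, 29 without WT2 and 79 without WT3, and 32 without the 4 libraries that stand apart, where WT3 keeps 1 tubule that is assumed to vary like the others. Leaving out each tubule gave 51 to 342. The tubule numbers did not pair the samples: of 18 pairs with the same number, 16 had deviations correlated below 0.1, and 5 of 12 tubules were most alike to their own number. A fit with the tubule number as a replicate block called 176 genes. The median between-mouse share was 0.0701 with no filter and 0.0559 without mouse WT2. The likeness of tubules of 1 mouse kept its direction in every alternative run and passed in 21. It missed the threshold without the 4 libraries, at an exact permutation p of 0.05. Of 36 named genes past the threshold, 4 passed in all alternatives that could test them, and 31 of the other named genes passed in at least 1. The cause of these changes was not tested.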

Other observations

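Cholesterol synthesis genes summed to 645 to 704 TPM over the 12 tubules, led by Hmgcs1, which encodes the cytosolic HMG-CoA synthase, at 90.1 ± 2.74 TPM (SD, n = 4 mice). By limma 0 of 21 passed for a difference between mice, against 1.59% of all genes, and an ordinary F test called 0. At an unadjusted limma p under 0.05 there were 2, against 21.9% of all genes. Interferon response genes summed to 140 TPM in WT3_3 and 383 TPM in WT1_2, and Ifit3, an antiviral protein gene, ran from 2.72 to 26.1 TPM in the same tubules. Ferritin was abundant, with Fth1 and Ftl1, the heavy and light chains, at 3097 ± 216 and 2350 ± 497 TPM.

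In the osmotic response list, Slc6a6, the taurine transporter, was at 118.5 ± 9.80 TPM, and Slc6a12, the betaine transporter, was at 19.8 TPM in WT2_3 and listed at 0 in WT3_2 and WT4_2. Npnt, for the matrix protein nephronectin, ran from 429.6 TPM in WT4_2 to 1278 TPM in WT2_3. Aldoc, an aldolase of glycolysis, was at 173.4 TPM in WT2_3 and 21.6 TPM in WT4_2, and these tubules are at the same ends for Aqp4 and Lcn2. Ren1, the renin gene, was at 8.92 TPM in WT3_1 and 8.63 TPM in WT4_2, and at 0 to 0.64 TPM in the other 10 tubules.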
